A study of Mus musculus with 18 samples.

Results

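The comparison set 3 samples of ESC-ASCs, mouse embryonic stem cells (ESCs) that had been converted in ABCL medium, against 3 samples of naive ESCs kept in 2i/LIF. It asked which genes differ between the converted cells in ABCL medium and the naive ESCs sequenced beside them. Its members were the 6 samples that the labels call ESC-ASC and ESC, out of 18 in the series, and the autosomal genes of the count tables. Each sample's file lists 35773 genes, of which 33458 were autosomal, and 15775 of these had enough counts to be tested. The labels give all samples as wild type with the strain 129S2/SvPasCrl, whereas the study's methods describe lines of mixed background. The medium 2i/LIF holds the MEK inhibitor PD0325901, the GSK3 inhibitor CHIR99021 and the cytokine LIF, and ABCL holds activin A, BMP4, CHIR99021 and LIF in N2B27. Converted cells had been passaged many times in ABCL. The study names more than 1 ESC line as a source of ESC-ASCs, and the labels do not say which line these samples came from, so the 3 samples of a group may be 1 line. The headers of the ESC-ASC count tables carry the name mSQ, which they do not explain, and no source used here says whether the sequenced ESCs were the parent line. A further group, 3 samples of ASCs, which were made in ABCL from activin- and FGF-grown stem cells (AFSCs), is used beside the ESC-ASCs because it shares their medium.

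Naive ESCs correspond to the preimplantation epiblast, and 2i/LIF holds them there by blocking the FGF and ERK cascade while sparing beta-catenin from GSK3. The ABCL medium removes the MEK inhibitor, keeps the GSK3 inhibitor, and adds ligands for the activin/Nodal branch and the BMP branch of TGF-beta signalling. Each pathway has feedback genes whose mRNA follows its activity in many cells, such as the Sprouty and Dusp genes for ERK, Axin2 and Sp5 for beta-catenin, Lefty and Smad7 for activin/Nodal, and the Id genes for BMP.

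The libraries differed in more than the medium. Total counts were 17813619 to 18071600 in ESC-ASC samples and 4961934 to 8077252 in ESC samples, so depth coincided with the group. The 4 Y-linked genes Ddx3y, Uty, Eif2s3y and Kdm5d held 3180 to 3338 counts together in each ESC-ASC sample, 1 to 6 in each ESC sample and 1 in each ASC sample. The ESC libraries sequenced here therefore lacked Y-linked RNA that the ESC-ASC libraries carried. The medium, the cell line and its sex cannot be told apart in any difference below. Words such as rose and fell mean higher and lower in ESC-ASCs than in ESCs, not a change followed within a line. The median log2 fold change (ESC-ASC minus ESC) was 0.06 over 635 X-linked genes and 0.02 over the autosomal ones. Against ASCs the X-linked median was -0.92. Processed pseudogenes took 0.122% to 0.128% of counts in ESC-ASC samples and 0.225% to 0.240% in ESC samples, and the lowest share in any other sample of the series was 0.154%. Of 39 processed pseudogenes tested 28 were called lower in ESC-ASCs (median log2 fold change -1.80), as were 83 of 169 small nucleolar RNA genes (median -1.19), and the cause was not tested. ESC replicate 1 stood apart from its group. It had the fewest counts, 8.08% of them mitochondrial against 2.70% and 2.92% in the other two, and the median gene differed by 0.39 and 0.40 on the log2 scale from replicates 2 and 3, which differed from each other by 0.13. The corresponding differences among ESC-ASC samples were 0.10 to 0.15.

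A gene was called changed when its adjusted p (edgeR quasi-likelihood test, Benjamini-Hochberg over all genes tested) was below 0.05 and its log2 fold change was beyond 1 in size. By this rule 2944 autosomal genes, 18.7% of those tested, were higher in ESC-ASCs and 2708, 17.2%, were lower. A further 3888 genes passed the adjusted p but not the fold. The middle of the distribution was centred near 0, with quartiles of -0.70 and 0.79. Values of the 3 ESC-ASC samples did not overlap those of the 3 ESC samples for 70.2% of genes. Chromosomes differed little, from a median of -0.14 on chromosome 7 to 0.17 on chromosome 15. A stricter rule also asked for a change beyond 2 on the log2 scale and an average log2 level above 3 in at least 1 group, and it left 905 higher genes (5.74%) and 821 lower ones (5.2%). The level used throughout is the normalized count per kb of exon, that is, the count divided by the sample's size factor and by exonic length.

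**Figure D1:**
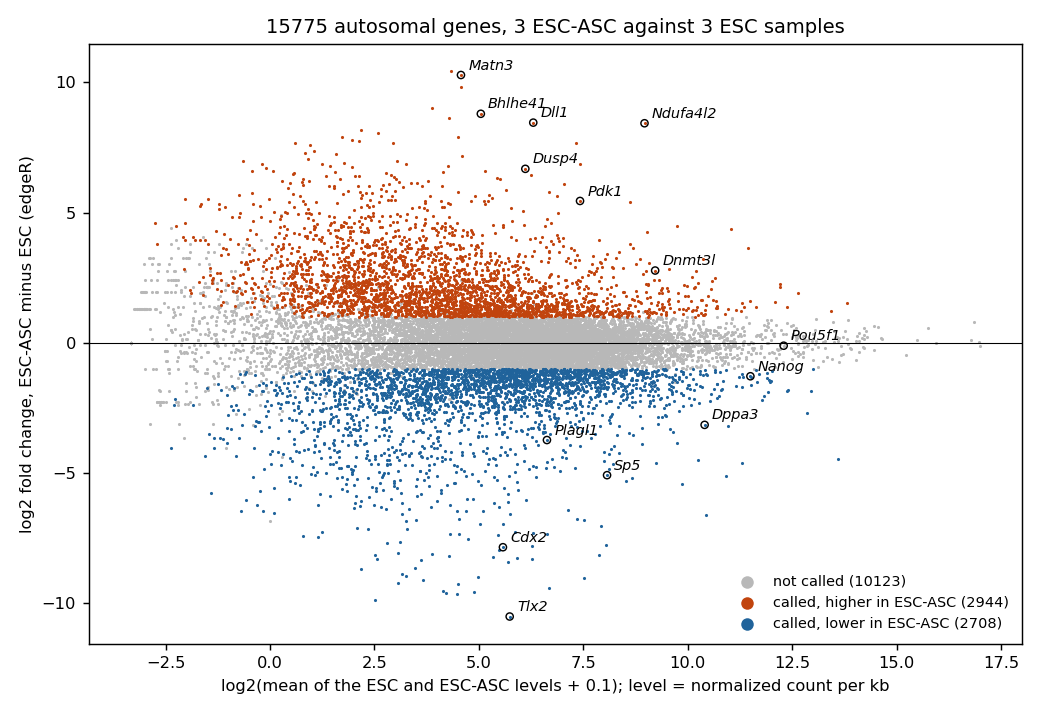
Each point is 1 autosomal gene, with its mean level over the ESC and ESC-ASC samples on the horizontal axis (log2) and the edgeR log2 fold change, ESC-ASC minus ESC, on the vertical axis. The 2944 called genes above the line and the 2708 below it spread over the range of levels; Pou5f1 lies at -0.11, near the middle.

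The genes with the highest fitted log2 fold changes under the stricter rule were absent or nearly absent from ESCs. Matn3, a cartilage matrix protein, had levels of 45, 53 and 44.2 in the ESC-ASC samples and no count in any ESC sample, at least 108-fold higher if the ESC group is set at 3 counts. H2-Q2, a class I histocompatibility gene whose relatives share reads with it, stood at 39.9, 52.6 and 48.9 and was likewise at 0 in ESCs, at least 77.7-fold higher. Myl3, a myosin light chain of slow and cardiac muscle, was at 29.9, 28 and 29.3 (at least 44.8-fold higher). The rule for these genes asked for groups that do not overlap. Bhlhe41, a circadian and hypoxia-responsive repressor, rose from 2 counts over all ESC samples to levels of 68, 63.8 and 65.8, a ratio of 501 with a 95% counting interval of 138 to 4137. Dll1, a Notch ligand, measured 0.933, 0.276 and 0.264 in ESCs and 167, 164 and 140.4 in ESC-ASCs, a log2 fold change of 8.45 (SE 0.30, adjusted p = 2.36e-13). Ndufa4l2, a mitochondrial protein induced under low oxygen, went from 4.1, 2.42 and 2.32 to 945, 993 and 1055 (8.43, SE 0.34). Rgl3, Trim29, Mir6950 and Ripply3 had no count in ESCs and were at least 23, 18.4, 17.8 and 17.4 times higher, and Nxph4 and Galnt3 had 1 count each in all ESC samples together. Mir6950 spans 73 bases, and fragments of longer transcripts crossing it could be counted for it, so its rise need not be that of the microRNA.

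Tlx2, a homeobox gene, had the lowest fitted log2 fold change, which for a group at 0 depends on the prior count. It went from levels of 144, 81.7 and 93.8 in ESCs to no count in any ESC-ASC sample, at least 319-fold lower. No count was left in ESC-ASCs either for Col3a1, a fibrillar collagen (17.9, 6.05 and 9.77 in ESCs), Olig3, a basic helix-loop-helix factor of the neural tube (42.3, 44.9 and 45.8), and Tat, tyrosine aminotransferase (39.3, 38.7 and 32.9). Their falls were at least 200.2-, 183- and 176-fold. Csf3r, the receptor for granulocyte colony-stimulating factor, and Aspa, aspartoacylase, kept 1 count each over all ESC-ASC samples, against 82.4, 42.6 and 52.5 and 33.7, 36.7 and 34.7 in ESCs. The ratios were 1204 and 1262, with 95% counting intervals of 215 to 47644 and 225 to 49953. Clec4a1, Akr1cl, the near-identical pair Sprr2a1 and Sprr2a2, and St8sia2 completed the 12 together with Rpl13-ps3 (a ratio of 715, interval 197 to 5917). The last is a ribosomal pseudogene, at 278, 444 and 379 in ESCs, 187, 396 and 346 in ASCs and 0.81, 0.783 and 0 in ESC-ASCs, and it belongs to the pseudogene class whose share of counts was low in all ESC-ASC libraries.

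Among the 28 gene lists with autosomal members, the share of tested members called in either direction ran from 16.7% (polycomb) to 100% (the 2 alkaline phosphatase genes), against 35.8% over all genes. Higher calls were most frequent among 2-cell, glycolysis, trophoblast, germline and class I histocompatibility genes, and lower calls among fibroblast, Wnt and naive pluripotency genes.

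**Figure D2:**
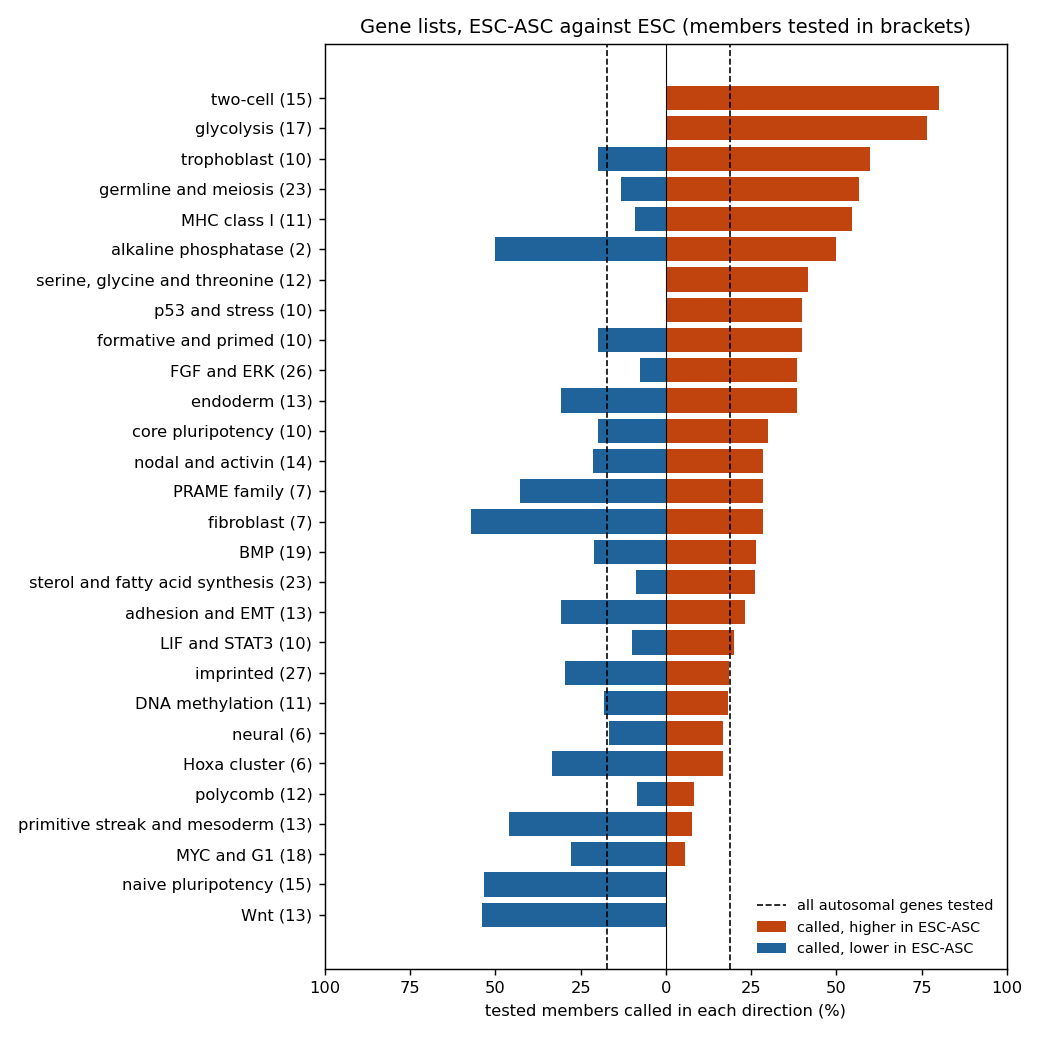
Bars give the percentage of tested members of each list called higher (right) or lower (left) in ESC-ASCs than in ESCs, with the number of members tested in brackets. Dashed lines mark the percentages over all autosomal genes, 18.7% higher and 17.2% lower.

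Of the 10 core pluripotency genes 3 rose, 2 fell and 5 were not called, which is 50% called against 35.8% over all genes. Pou5f1, which encodes OCT4, measured 5073, 5424 and 5159 in ESCs and 5126, 4391 and 5042 in ESC-ASCs, with overlapping samples and a log2 fold change of -0.11 (SE 0.19, adjusted p = 0.645). Nanog fell from 4967, 3671 and 3688 to 1787, 1586 and 1700.4 (-1.28, SE 0.16) and Sall4 from 405, 479.7 and 492 to 158, 151 and 172 (-1.52, SE 0.12). Neither overlapped, as was so for 70.2% of all genes. Sox2 measured 2691, 2191 and 2107 against 1549.8, 1317 and 1492 and did not pass the fold. Lin28a, an RNA-binding repressor of let-7 maturation, showed the largest rise, from 71.9, 110.1 and 98 to 809, 703 and 798 (3.03, SE 0.17, adjusted p = 4.76e-11), and every ESC-ASC sample exceeded the ASC samples, which lay at 311, 332 and 399. Utf1 (1.97) and Dppa4 (1.202), chromatin-associated proteins of pluripotent cells, also rose.

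Of 15 naive pluripotency genes 8 fell, 0 rose and 7 were not called, with a median log2 fold change of -1.04 against 0.02 over all genes. Dppa3, a maternal factor that protects against demethylation in the zygote, dropped from 3580.3, 1992 and 1743 to 332, 224 and 268 (-3.15, SE 0.27, adjusted p = 1.67e-08). Prdm14, which represses FGF receptor and de novo methyltransferase genes, dropped from 146, 165 and 181 to 36.1, 33.2 and 35.9 (-2.23, SE 0.17). Gbx2, Klf2, Nr5a2, Fbxo15, Tbx3 and Zfp42 fell by 1.80, 1.64, 1.38, 1.32, 1.05 and 1.04 on the log2 scale, and the fall of Zfp42 stopped just short of the fold without ESC-ASC replicate 2 or ESC replicate 3 (-0.997 and -0.996). By adjusted p alone 11 of the 15 were lower and 2 higher, and Klf4 (-0.87), Tfcp2l1 (-0.74) and Tcl1 (-0.47) were lower without passing the fold. The list still did not move as 1 block. Esrrb, an orphan nuclear receptor of the naive network, was at 596, 802 and 806 in ESCs and 1057, 976 and 1087 in ESC-ASCs (0.50, below the fold), and Klf5 (134, 387 and 417 against 374, 346 and 409.8) and Dppa5a (24235, 24117 and 24127 against 29107, 24180.5 and 28169.5) overlapped between the groups. Klf5 in ESC replicate 1 was far below the other ESC samples.

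Genes of the formative and primed epiblast gave a mixed picture, with 4 of 10 higher, 2 lower and 4 not called. The share called was 60%, against 35.8% over all genes. Pou3f1, also called OCT6, rose from 2.05, 2.12 and 3.19 to 12, 10.2 and 12 (2.16, SE 0.29), and Sox4 and Sox11 rose by 1.99 and 1.99. Tcf15, a marker of cells primed to leave the naive state, rose from 54.2, 45.1 and 36.4 to 101, 94.7 and 106 (1.17), a call that was lost without ESC replicate 3 (1.03, adjusted p = 0.0639). Otx2, the homeobox factor of the postimplantation epiblast, measured 27.2, 24 and 25.9 against 25.3, 22.4 and 27.8 and overlapped, and Fgf5, the standard mark of the primed state, had 0 counts in ESCs and 3 in ESC-ASCs over all samples. Foxd3 went the other way, from 173, 167 and 170.4 to 17, 19.5 and 16.4 (-3.27, SE 0.15, adjusted p = 5.57e-12), while ASCs stood at 153, 189 and 210.03, in the ESC range.

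Among 17 primitive streak and mesoderm genes 13 were tested, of which 6 fell and only Eomes rose (53.8% called against 35.8% over all genes). Eomes, a T-box factor, went from 1.9, 2.52 and 2.68 to 20.7, 18.3 and 20.2 (2.998, SE 0.26), close to the 17.1, 23.5 and 24 of ASCs. Gsc, goosecoid, fell from 208, 166 and 190.03 to 5.58, 7.71 and 6.74 (-4.79, SE 0.25, adjusted p = 1.73e-11). Cdx1 fell from 135, 142 and 135 to 50.6, 35.2 and 49.1 (-1.62) and was at 245, 460.4 and 404 in ASCs. T, brachyury, did not change beyond the threshold (18.7, 21.6 and 22.2 against 17, 14.6 and 14.6). Hand1 and Wnt5a were almost silent in both compared groups, with 9 and 11 counts over the ESC-ASC samples, although ASCs in the same medium held levels of 33.5, 35.4 and 47.8 and 7.17, 5.04 and 7.01. Mesp1, Tbx6, Wnt3a and Msgn1 did not pass the filter on low counts.

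FGF and ERK genes mostly kept to rises where they changed. Of 26 genes 10 rose, 2 fell and 14 were not called, with a median of 0.76 (46.2% called against 35.8% over all genes). Dusp4, a nuclear phosphatase that inactivates ERK, stood at 1.44, 1.27 and 1.22 in ESCs and 140.4, 132 and 138 in ESC-ASCs (6.68, SE 0.47, adjusted p = 9.34e-10). Spry4, a Sprouty inhibitor of receptor tyrosine kinase signalling, went from 0.429, 1.52 and 1.22 to 64.8, 53.7 and 56.8 (5.63, SE 0.28), and Spry1 from 4.74, 4.41 and 3.84 to 61.1, 51.9 and 61.2 (3.75, SE 0.19). Dusp6, which is specific for cytoplasmic ERK, rose from 24.6, 16.2 and 15.6 to 63.8, 55.9 and 57.9 (1.69), and the ETS factor Etv4 from 46.3, 52.5 and 47.4 to 136, 129 and 127 (1.41). No ESC-ASC value of these 5 genes reached down to the ESC range, and 70.2% of all genes likewise did not overlap. The ligand Fgf15 (5.08) and the receptors Fgfr3 (4.52) and Fgfr4 (2.92) also rose, as did the immediate early genes Fos (3.38) and Ier3 (3.37). Members of the same families moved differently: Spry2 fell from 368, 416 and 401 to 173, 182 and 170.2 (-1.18, SE 0.11), Etv1 fell by 1.61, and Etv5, Spred2 and Fgf4 were not called. Egr1, an immediate early factor, measured 7.03, 7.79 and 5.72 in ESCs, 10.9, 9.7 and 11.4 in ESC-ASCs and 556, 549.99 and 619.6 in ASCs. Its log2 fold change was 0.64 against ESCs and -5.73 against ASCs (adjusted p = 3.66e-15).

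The GSK3 inhibitor was present in both media. Of 13 Wnt pathway genes 7 fell, 0 rose and 6 were not called, with a median of -1.09 (53.8% called against 35.8% over all genes). Without ESC replicate 2 a single gene, Nkd1, was called higher (1.18, against 0.82 with all samples). Sp5, a direct target that itself represses transcription, fell from 505, 515 and 545 to 17.1, 12.6 and 16.8 (-5.08, SE 0.22, adjusted p = 1.93e-12). Notum, a secreted enzyme that inactivates Wnt ligands, fell from 653, 454 and 506 to 20.4, 19.1 and 16.3 (-4.85, SE 0.19), and Axin2, the scaffold of the beta-catenin destruction complex, from 185, 226 and 216 to 41.8, 32.9 and 44.6 (-2.40, SE 0.17). The secreted inhibitor Dkk1 measured 23.5, 10.1 and 12 against 0, 0.604 and 0.207 (-5.49). The groups did not overlap in any of these 4 genes, but that held for 70.2% of all genes and for 818 of the 821 strongly lower ones. Tcf7l1, the repressor form of the TCF factors in ESCs, fell from 405, 534 and 576 to 58.5, 55.9 and 65.9 (-3.08), and Tcf7l2 fell by 3.38. Tcf7, Lef1 and Ctnnb1, which encodes beta-catenin, were not called. The ASC samples, also grown with the inhibitor, held 74.5, 115 and 121 for Sp5 and 110.3, 102 and 112 for Axin2, above ESC-ASCs (log2 fold changes against ASCs of -2.72 and -1.43). The RefSeq promoter windows of 3 Wnt targets that fell are shown so that CTTTGAT, 1 form of the sequence bound by TCF factors, can be looked for. They span 250 bases before to 50 after the start on the gene's strand in GRCm38.p6, and CTTTGAT, searched on both strands, is in capitals. It occurs once for Sp5, beginning 104 bases before the start, and not in the windows of Dkk1 and Axin2, and 3.73% of all 32851 windows hold it. Related forms were not searched, so its absence does not mean that a window lacks TCF sites. The Dkk1 window holds CTTTGAA and CTTTGTT, left in small letters. The windows are chr2:70474673-70474972 on the plus strand (Sp5), chr19:30549447-30549746 on the minus strand (Dkk1) and chr11:108920099-108920398 on the plus strand (Axin2).
Sp5: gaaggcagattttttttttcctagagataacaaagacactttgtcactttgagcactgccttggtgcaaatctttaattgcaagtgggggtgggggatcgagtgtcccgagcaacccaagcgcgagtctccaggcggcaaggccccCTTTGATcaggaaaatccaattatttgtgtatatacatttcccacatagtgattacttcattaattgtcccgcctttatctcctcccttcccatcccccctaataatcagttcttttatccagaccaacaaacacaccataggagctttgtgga
Dkk1: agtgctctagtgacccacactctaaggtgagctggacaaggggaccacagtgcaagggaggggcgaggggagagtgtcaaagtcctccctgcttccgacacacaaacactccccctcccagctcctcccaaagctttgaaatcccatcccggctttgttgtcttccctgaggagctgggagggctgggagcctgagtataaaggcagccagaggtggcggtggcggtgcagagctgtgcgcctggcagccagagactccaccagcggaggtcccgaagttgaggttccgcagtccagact
Axin2: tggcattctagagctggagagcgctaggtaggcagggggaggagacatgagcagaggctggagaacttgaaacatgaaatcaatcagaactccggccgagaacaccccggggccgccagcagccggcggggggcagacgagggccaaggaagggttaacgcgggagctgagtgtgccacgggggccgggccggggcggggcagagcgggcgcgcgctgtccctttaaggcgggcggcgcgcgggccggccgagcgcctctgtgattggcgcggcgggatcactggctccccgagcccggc

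Activin and Nodal genes split. Of 16 genes 14 were tested, 4 rose and 3 fell, which is 50% called against 35.8% over all genes. Skil, a feedback inhibitor of SMADs, rose from 14.6, 26.5 and 25.1 to 129, 125 and 136 (2.53, SE 0.22), and the Nodal co-receptor Tdgf1 from 723, 574 and 609 to 2157, 2411 and 2109.5 (1.81, SE 0.17). In both the ESC-ASC and ASC levels were not called different. Nodal itself fell from 334, 221 and 263 to 77.9, 97.9 and 76.3 (-1.69), Gdf3 from 429, 309.8 and 316 to 95.8, 119 and 102 (-1.73) and the inhibitory Smad7 from 162, 155 and 168 to 49.4, 52.2 and 58.5 (-1.60, SE 0.12). Lefty1 (-0.67) and Lefty2 (-0.54), near-identical antagonists that share counts, did not pass the fold.

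Of 19 BMP genes tested 5 rose and 4 fell, which is 47.4% called against 35.8% over all genes. The target Id1 rose from 45.8, 35.1 and 20.2 to 71, 72.4 and 78.9 (1.18, SE 0.29, adjusted p = 0.0016), but Id3 measured 18.7, 42.2 and 33.6 against 29.1, 24 and 27.8 with overlap, and Id2 fell from 121, 165 and 142 to 48.2, 50.01 and 52.6 (-1.52, SE 0.16). Id4 and the inhibitory Smad6 fell by 2.00 and 1.66. ASCs, given the same BMP4, held 222, 397 and 377 for Id1 and 348, 603 and 556 for Id3, and ESC-ASCs were lower than ASCs (-2.15 and -4.20 on the log2 scale, adjusted p = 1.16e-06 and 7.83e-11). Without ESC replicate 3, the lowest ESC sample, the rise of Id1 against ESCs was 0.90 and was not called. The homeobox targets Msx1 and Msx2 were at most 4.26 and 3.87 in ESC-ASCs and at least 20.6 and 28.6 in ASCs. Ligand mRNA rose, Bmp4 from 7.97, 4.71 and 7.52 to 45.7, 40.9 and 42.9 (2.70) and Bmp7 by 1.59 on the log2 scale.

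LIF was present in both media. Its feedback gene Socs3 rose from 386, 393 and 365 to 1045, 954 and 996 (1.39, SE 0.14) and Stat3 from 64.5, 115 and 119 to 224, 214 and 238 (1.17, SE 0.18), and both were also higher in ESC-ASCs than in ASCs (2.04 for Socs3). Bcl3 fell by 1.89. The other 7 of the 10 tested genes were not called, so 30% were called against 35.8% over all genes. Without ESC replicate 1 the change of Stat3 was 0.93, leaving 1 gene called higher, and 4 were higher without ESC replicate 3, under upper-quartile scaling or with 10 counts required in each of the 6 samples.

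**Figure D3:**
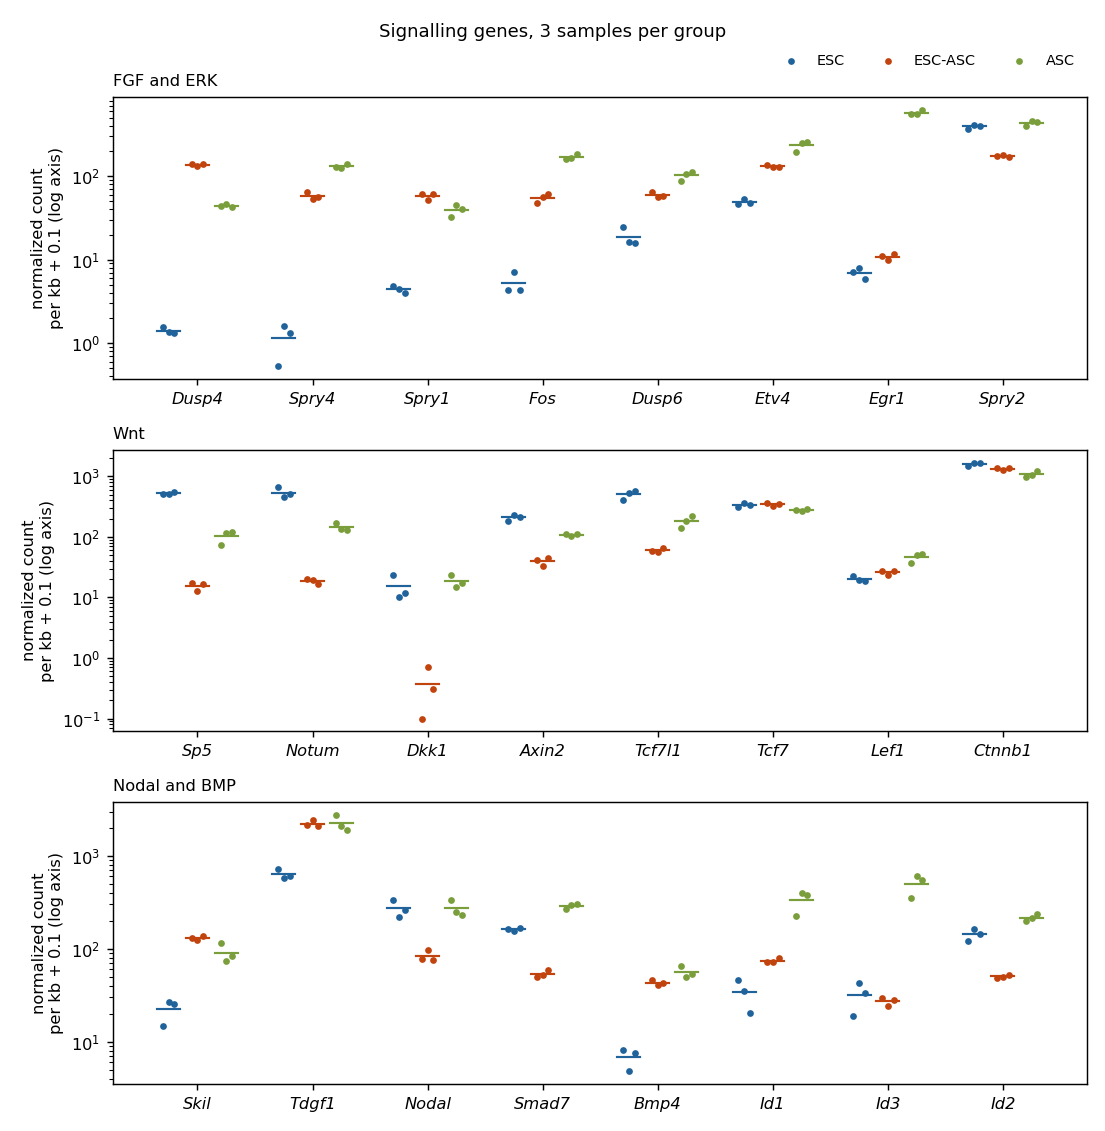
Points are single samples (3 ESC, 3 ESC-ASC and 3 ASC) and short lines are group means. The vertical axis is the normalized count per kb plus 0.1 on a log scale. ESC-ASC points lie above ESC points for Dusp4, Spry4 and Spry1, below them for Sp5, Notum and Axin2, and far below ASC points for Egr1 and Id3.

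Of 11 genes of DNA methylation 2 rose, 2 fell and 7 were not called. The 36.4% called was near the 35.8% over all genes. Dnmt3a, a de novo methyltransferase, rose from 5.92, 7.76 and 7.71 to 46.1, 45.5 and 48.2 (2.69, SE 0.17, adjusted p = 2.65e-10) and its catalytically inactive partner Dnmt3l from 103, 180.3 and 169 to 1023, 1034 and 1072 (2.78, SE 0.20). Dnmt3b measured 157, 181 and 189 against 274, 232 and 250.1 and passed the adjusted p but not the fold (0.51). Maintenance genes Dnmt1 (0.19) and Uhrf1 (0.25) were not called. Tet2, a dioxygenase that oxidizes methylcytosine, fell from 51.6, 48.3 and 53.1 to 24.9, 24.5 and 23.6 (-1.07), and Tet1 overlapped between the groups (-0.06). Trim28, a corepressor that protects imprints, fell by 1.19, with ESC replicate 1 well below the other ESC samples.

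Germline and meiosis genes mostly rose. Of 23 genes 13 rose, 3 fell and 7 were not called, and the median log2 fold change was 1.55. Mael, a piRNA pathway protein, rose from 4.54, 4.7 and 3.22 to 85.8, 93.3 and 95.4 (4.46, SE 0.29, adjusted p = 1.44e-09). Ddx4, the germ cell helicase VASA, rose from 4.15, 7.76 and 7.83 to 63, 76.8 and 69.2 (3.33, SE 0.24), Mov10l1, a piRNA helicase, from 3.29, 1.67 and 2.93 to 18.9, 19.3 and 17.1 (2.83) and Piwil2, a PIWI protein, from 5.61, 9.95 and 11.6 to 54.1, 60.2 and 57.9 (2.61). Sycp3, of the synaptonemal complex, rose from 103, 37.8 and 41.5 to 169, 169 and 172 (1.55) and exceeded ASCs, which lay at 48.7, 37 and 36.4. Sohlh2, Smc1b and Stra8 rose by 2.39, 2.42 and 2.19. Dazl, an RNA-binding protein needed for germ cell commitment, fell from 576, 361 and 359.8 to 48.8, 44.7 and 46.7 (-3.20, SE 0.19, adjusted p = 3.81e-10), Rpl10l from 2159, 1614 and 1575 to 521, 460.3 and 542 (-1.81) and the meiotic cohesin subunit Rec8 from 123, 113 and 121 to 56.8, 58 and 54.3 (-1.08). Rpl10l is a retrogene copy of Rpl10, and fragments of the parent could be counted for it. The promoter windows of these 3, the only members that fell, are shown with CACGTG (an E-box) and GCGGGA (an E2F-type sequence) in capitals, both searched on both strands. Dazl has neither, and Rpl10l and Rec8 have 1 GCGGGA each on the opposite strand, 43 and 38 bases before the start. Over all windows 7.15% hold CACGTG and 19.98% hold GCGGGA. The windows are chr17:50293571-50293870 on the minus strand (Dazl), chr12:66284352-66284651 on the minus strand (Rpl10l) and chr14:55617916-55618215 on the plus strand (Rec8).
Dazl: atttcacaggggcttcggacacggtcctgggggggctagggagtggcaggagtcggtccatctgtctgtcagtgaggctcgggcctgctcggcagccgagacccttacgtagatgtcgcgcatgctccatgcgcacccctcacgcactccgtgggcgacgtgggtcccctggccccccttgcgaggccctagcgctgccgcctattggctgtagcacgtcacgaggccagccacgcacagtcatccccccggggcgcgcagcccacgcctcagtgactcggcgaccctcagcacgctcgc
Rpl10l: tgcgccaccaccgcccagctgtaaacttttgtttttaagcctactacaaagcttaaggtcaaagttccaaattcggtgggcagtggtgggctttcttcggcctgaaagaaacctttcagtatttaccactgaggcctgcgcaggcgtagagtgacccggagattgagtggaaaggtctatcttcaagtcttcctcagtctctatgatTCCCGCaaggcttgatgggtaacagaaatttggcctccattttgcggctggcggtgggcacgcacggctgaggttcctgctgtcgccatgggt
Rec8: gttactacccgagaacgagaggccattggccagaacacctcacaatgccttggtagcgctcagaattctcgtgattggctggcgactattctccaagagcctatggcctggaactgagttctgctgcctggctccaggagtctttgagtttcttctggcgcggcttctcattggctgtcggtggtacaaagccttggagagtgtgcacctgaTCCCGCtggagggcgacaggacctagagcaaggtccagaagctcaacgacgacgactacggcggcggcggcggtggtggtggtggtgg

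Genes of the 2-cell embryo, which flicker on in rare ESCs, were higher in ESC-ASCs than in ESCs but low beside ASCs. Of 15 tested genes 12 rose and 0 fell against ESCs (median 2.75, or 2.48 with genes without ESC counts at their lower bound), and 15 of 15 were lower than in ASCs (median -3.57), against a background of 15.5% lower in that comparison. The count filter took in a gene with enough counts in any group, so members almost silent in ESC-ASCs were tested too. Where ASCs were the group that let a member in, lower than in ASCs was close to fixed beforehand. Zscan4e measured 1.1, 1.95 and 1.87 in ESCs, 46.8, 38.1 and 44 in ESC-ASCs and 557, 466 and 496 in ASCs. Zscan4c measured 12.1, 7.16 and 9.8, 70.9, 46.8 and 56.1 and 864, 682 and 724 in the same order. The groups did not overlap for either gene, and ESC-ASC and ESC samples did not overlap for 70.2% of all genes. Duxf3, a DUX activator gene, had 3 counts over the ESC-ASC samples and 0 over the ESC samples. Fragments that mapped to several places were counted at each, so Zscan4, Usp17l and Tcstv copies are not separate measurements. Of the PRAME family 7 genes were tested. Pramel7, which promotes degradation of UHRF1, fell from 112, 68.7 and 83.6 to 0.474, 0.229 and 0.707 (-7.39, SE 0.36), and Pramel6 from 80.3, 63.7 and 59.4 to 0.485, 0.234 and 1.45 (-6.45), whereas Pramef25 rose from 1 count in ESCs to 4.8, 6.96 and 4.78.

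Imprinted genes moved in both directions, 5 rising and 8 falling of 27 tested. The maternally expressed growth regulators Phlda2 (12.3, 15.6 and 14.9 to 202, 199.6 and 211, 3.80), Cdkn1c (11.6, 17.1 and 8.21 to 133, 113 and 129, 3.33) and H19 (18.3, 5.4 and 13.2 to 68.2, 64.7 and 66.1, 2.50) rose, as did Grb10, an adaptor that restrains insulin signalling (12.1, 18.2 and 19.5 to 125, 116 and 129.9, 2.87). All of the 8 falls but that of Mirg were in paternally expressed genes. A further 14 genes were not called, and the share of paternally expressed genes among the 27 is not given here. Plagl1, a zinc finger factor, went from 219.6, 164 and 169 to 14.5, 13.9 and 13.2 (-3.73, SE 0.15, adjusted p = 1.19e-12), Mest from 74.4, 57.5 and 65.6 to 7.69, 7.43 and 8.28 (-3.07) and Zrsr1 from 143, 90.8 and 87 to 15.9, 18.6 and 20.1 (-2.54). Peg13 kept 2 counts over the ESC-ASC samples, from 61 over the ESC samples. Igf2, the paternally expressed growth factor beside H19, was low in both compared groups (2.41, 0.61 and 0.78 and 1.15, 1.45 and 0.791) and at 551, 498 and 617 in ASCs, a log2 fold change of -8.90 against ASCs. In the Hoxa cluster 6 of 12 genes were tested. Hoxa7 fell from 4.11, 6.07 and 4.65 to 0.352, 0.34 and 0.874 and Hoxa10 from 13 counts to 3, while the noncoding neighbour Halr1 rose from 1 count to levels of 14.4, 23.9 and 22.5.

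**Figure D4:**
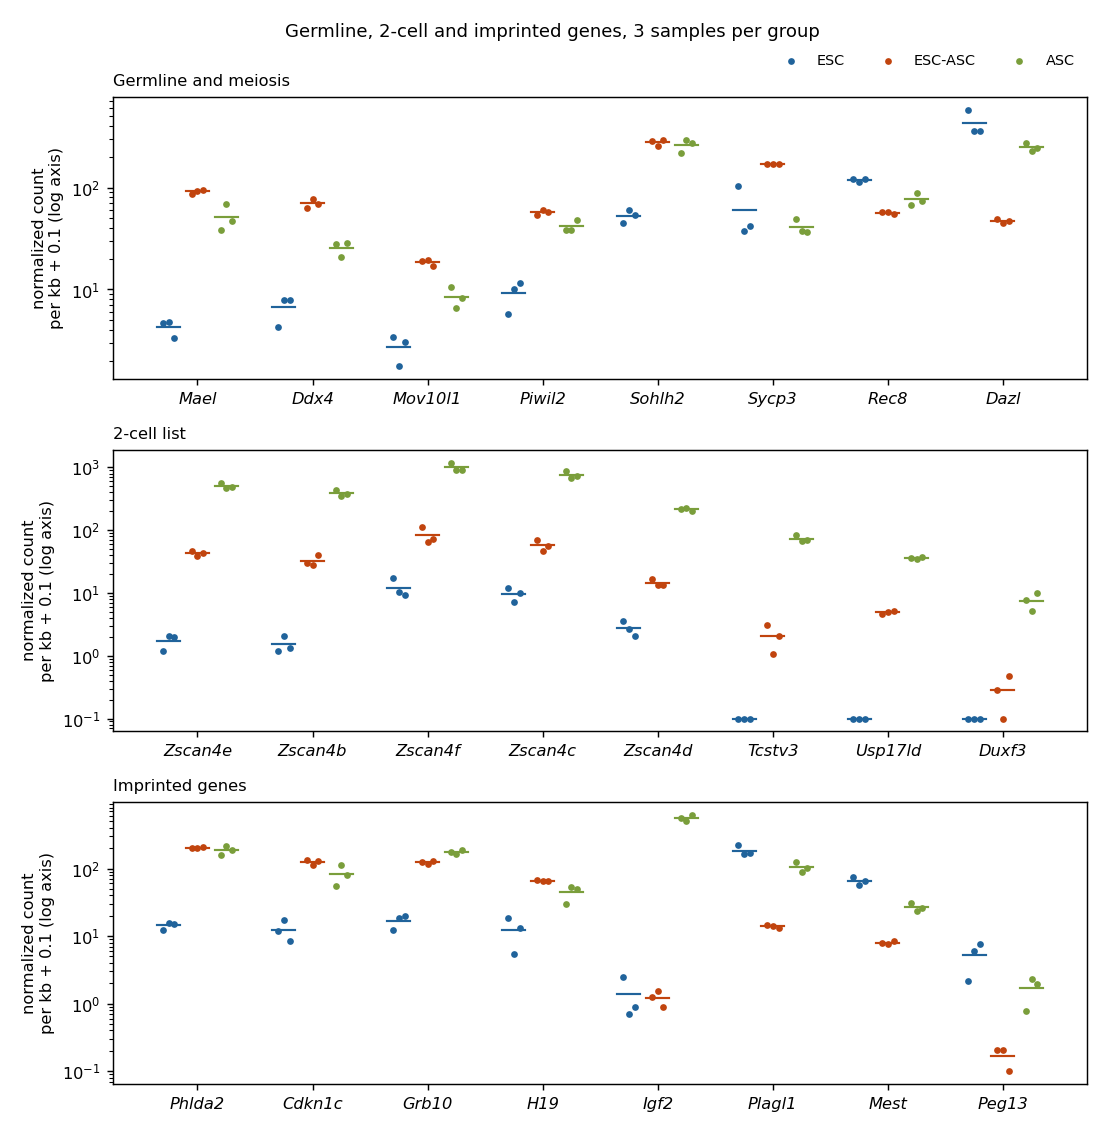
Points are single samples and short lines are group means, on a log axis of the normalized count per kb plus 0.1. ESC-ASC points of the Zscan4 genes lie between those of ESCs and ASCs, Dazl and Plagl1 points lie below both, and Igf2 points lie near those of ESCs, with ASCs at 498 or more.

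Most glycolysis genes rose. Of 17 genes 13 rose, 0 fell and 4 were not called, with a median of 1.36, and 15 passed the adjusted p in the upward direction. Pdk1, a kinase that diverts pyruvate from the mitochondria, went from 7.34, 9.13 and 6.45 to 332, 334 and 341 (5.45, SE 0.17, adjusted p = 8.09e-14). Slc16a3, the lactate exporter MCT4, went from 20.7, 17.7 and 17.2 to 217, 275 and 228 (3.70, SE 0.18), and Ldha, lactate dehydrogenase, from 1072, 2059 and 1708 to 8013, 7389 and 8059 (2.27, SE 0.30). The phosphofructokinases Pfkp, Pfkl and Pfkm rose by 2.26, 2.11 and 1.24, and the glucose transporters Slc2a1 and Slc2a3 by 1.38 and 1.27. Gapdh measured 16439, 15524 and 14115 against 12026, 10440.1 and 12218 (-0.41) and Hk1 127, 178 and 178 against 175, 177 and 189 (0.16), and neither was called. For Pkm and Tpi1, ESC replicate 1 lay well below the other ESC samples, and without it the rise of Pkm was 0.90 and was not called. Against ASCs, 2 of the 17 genes were higher and 0 lower. The promoter windows of Ldha, Slc16a3 and Pdk1 were searched on both strands for ACGTG, the core letters bound by hypoxia-inducible factors. Only the windows with a match, the first listed of Ldha and that of Slc16a3, are shown, with the letters in capitals. The Ldha window holds 5 matches, 4 of them as 2 overlapping pairs on opposite strands, and the Slc16a3 window holds 2, whereas the other window listed for Ldha and the 2 listed for Pdk1 hold 0; the share over all windows is 19.6%. They lie at chr7:46845554-46845853 and chr11:120948817-120949116, both on the plus strand.
Ldha: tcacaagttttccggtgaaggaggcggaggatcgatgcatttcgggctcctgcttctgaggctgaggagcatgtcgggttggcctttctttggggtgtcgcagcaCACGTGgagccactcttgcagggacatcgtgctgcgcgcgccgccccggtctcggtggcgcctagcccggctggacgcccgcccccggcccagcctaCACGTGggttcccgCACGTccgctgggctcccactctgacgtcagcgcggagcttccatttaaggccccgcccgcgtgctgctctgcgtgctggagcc
Slc16a3: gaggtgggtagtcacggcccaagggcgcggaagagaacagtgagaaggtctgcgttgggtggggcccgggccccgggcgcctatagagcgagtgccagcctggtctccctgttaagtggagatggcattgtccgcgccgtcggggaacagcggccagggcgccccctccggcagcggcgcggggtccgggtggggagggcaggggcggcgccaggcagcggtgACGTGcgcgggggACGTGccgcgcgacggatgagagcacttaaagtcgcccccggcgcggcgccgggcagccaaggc

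In the serine, glycine and threonine list 5 of 12 genes rose and 0 fell, which is 41.7% called against 35.8% over all genes. Gldc, the glycine decarboxylase, rose from 192, 206 and 199.99 to 1082, 1109.5 and 1021 (2.42, SE 0.14, adjusted p = 8.26e-11), and Phgdh, the entry enzyme of serine synthesis, from 234, 301 and 298 to 1082, 1019 and 1082 (1.93, SE 0.16). Psat1, Psph and Mthfd2 rose by 1.79, 1.42 and 1.19. Tdh, the threonine dehydrogenase on which mouse ESCs depend, measured 2010.3, 2541 and 2516 against 1446, 1302 and 1351 (-0.79, below the fold). Among 23 genes of sterol and fatty acid synthesis 6 rose, led by Dhcr7 (1.79) and Lss (1.48) of the cholesterol branch, and 2 fell. The 34.8% called was near the share over all genes. Fasn, fatty acid synthase, fell from 520.2, 817 and 885 to 187, 180.1 and 195 (-1.99).

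**Figure D5:**
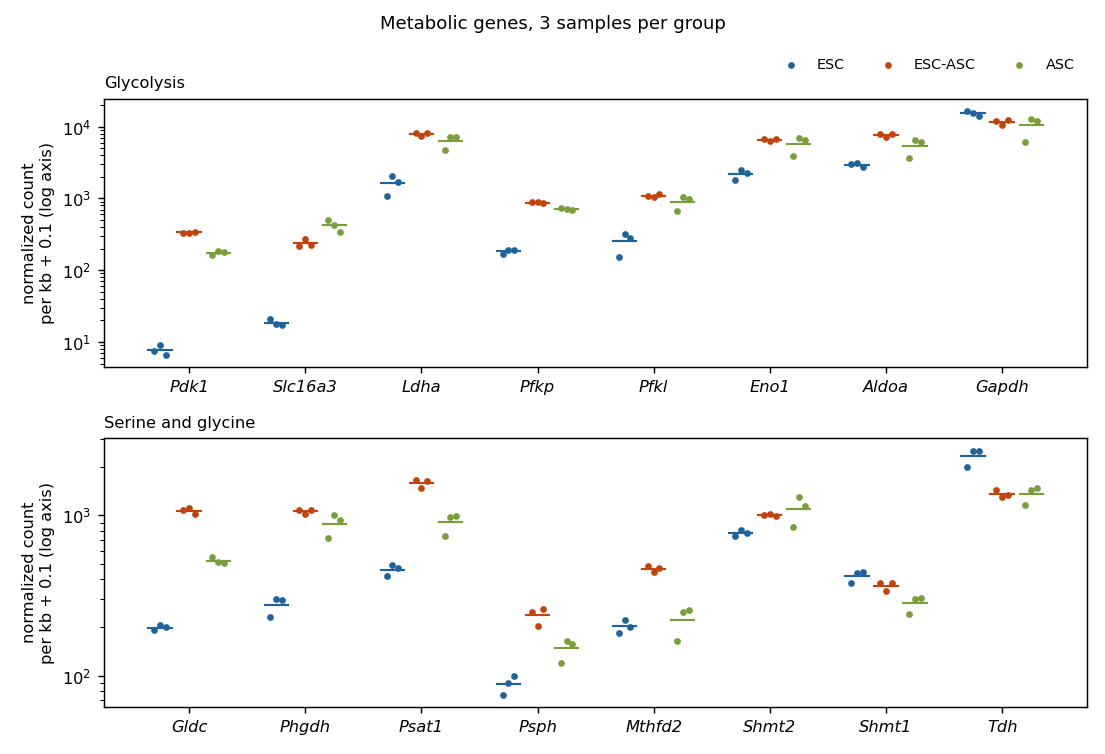
Points are single samples and short lines are group means, on a log axis of the normalized count per kb plus 0.1. For Pdk1, Slc16a3 and Gldc all ESC-ASC points lie above all ESC points, and for Gapdh and Tdh they lie slightly below.

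Of 18 growth and cell cycle genes 5 were lower and 1 was higher. The 33.3% called was near the 35.8% over all genes. Ccnd1, cyclin D1, fell from 498, 603 and 570.4 to 116, 105 and 115 (-2.32, SE 0.13, adjusted p = 7.39e-11), Mycl from 122, 181 and 182 to 33.1, 29.5 and 32.1 (-2.37) and Mycn from 278, 325 and 334 to 129.8, 115 and 123 (-1.36), while Ccnd2 rose from 2.09, 1.48 and 2.96 to 7.04, 6.44 and 6.52 (1.59). Myc did not pass the fold against ESCs (8.54, 10.1 and 7.26 to 7.13, 3.35 and 4.36; called at -1.15 without ESC-ASC replicate 1) but was lower than in ASCs, at 37.8, 58.5 and 65.4 (-3.42). Of 13 adhesion genes tested 3 rose and 4 fell, which is 53.8% called. Esrp1, an epithelial splicing regulator, went from 0.625, 0.369 and 1.06 to 68.2, 72.2 and 68.9 (6.60, SE 0.27), and Cldn7, a claudin, from 8.09, 7.77 and 6.3 to 228, 244 and 218 (4.97, SE 0.25), both above ASCs. Cdh1, E-cadherin, did not pass the fold (-0.87), and Vim, Zeb1, Snai1 and Cdh3 fell by 1.67, 1.69, 1.32 and 1.47. Of 11 class I histocompatibility genes tested 6 rose and 1 fell. H2-K1, a classical class I chain, rose from 23.4, 18.3 and 18.4 to 215, 254 and 198 (3.49, SE 0.21), H2-D1 from 26.7, 15.8 and 16 to 74.3, 97.9 and 89.7 (2.21), and the peptide transporter subunits Tap1 and Tap2 by 2.56 and 3.77. H2-T23, a nonclassical class I chain, fell from 8.18, 5.64 and 4.63 to 1.05, 0.338 and 0.348 (-3.28, SE 0.47). B2m, the light chain of class I molecules, overlapped between the groups (0.24). Of 12 polycomb genes 10 were not called, Ezh1 rose and Bmi1 fell. Without ESC replicate 2 a further one, E2f6, was higher. In the stress list Ddit3, the transcription factor CHOP, rose from 129.9, 99.9 and 102 to 498, 532 and 521 (2.24, SE 0.19) and was also above ASCs (2.33). Pmaip1 and Atf3 rose by 2.52 and 2.79. Alkaline phosphatase Alpl fell by 1.16 (-0.92 and not called without ESC replicate 1), and Alppl2 rose from 1 count over the ESC samples to levels of 5.38, 4.11 and 5.13.

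Markers of other cell types were read from the same fit; in bulk samples fewer cells of a type and less RNA per cell cannot be told apart. The 10 fibroblast genes summed to levels of 53.2 to 121 in ESC samples and 77.8 to 89.99 in ESC-ASC samples, overlapping ranges. Col1a1 fell from 29.4, 14.4 and 23.3 to 1.23, 1.49 and 0.766 (-4.22), Col1a2 by 5.40, and Dcn from 60 counts to 2, whereas Thy1 (3.04) and Pdgfrb (1.59) rose. The source of the collagen and Dcn counts in the ESC libraries was not tested. Of 10 trophoblast genes tested 6 rose and 2 fell. The keratins Krt19, Krt7, Krt18 and Krt8 rose by 4.47, 3.58, 3.11 and 1.45, and Ascl2 by 3.32. The lineage-defining Cdx2 fell from 71.4, 112 and 102 to 0, 0.216 and 0.889 (-7.84, SE 0.43) and Gata3 from 5.94, 4.39 and 4.77 to 0.127, 0 and 0.379, and Elf5 had 1 count in ESCs and 0 in ESC-ASCs. Endoderm genes split 5 to 4 of 13 (69.2% called against 35.8% over all genes). The 16 listed genes summed to lower levels in ESC-ASC samples, 430 to 524, than in ESC samples, 774 to 1068. Amn and Hnf4a, both of visceral endoderm, rose, Hnf4a from 0.408, 1.69 and 0.693 to 10.2, 7.89 and 9.89 (3.18), Gata6 and Gata4 rose by 1.16 and 1.41 from low levels, and Dab2 fell by 3.74. The call of Gata6 was lost on leaving out ESC-ASC replicate 2 or 3 or ESC replicate 2 or 3 (adjusted p from 0.0673 to 0.229, lowest log2 fold change 0.77), and 3 endoderm genes were higher without ESC-ASC replicate 2. Sox17 was not called, except without ESC replicate 2 (2.59), and Afp and Ttr had at most 1 count in either group. Of 6 neural genes tested Map2 rose (2.58) and Tubb3 fell from 559, 602 and 578 to 56.6, 42.6 and 52.2 (-3.53), and Sox1, Nes and Pax6 were not called. The 33.3% called was near the share over all genes.

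Set against ASCs, which live in the same medium but came from another source, ESC-ASCs were higher for 1236 autosomal genes (7.84%) and lower for 2440 (15.5%). Of the 3 naive genes that fell most against ESCs, Dppa3 was not called against ASCs (0.14) and Prdm14 (-1.85) and Gbx2 (-1.28) were lower. Of the 19 BMP genes 11 were lower than in ASCs, of the 13 Wnt genes 8, and of the 13 streak and mesoderm genes 8, with 0 higher in each of the 3 lists. The filter took in a gene with enough counts in any group. Members silent in ESC-ASCs, such as Lgr5, were therefore tested and could not come out higher than in ASCs. Nothing was lower among the 17 glycolysis genes. The ESC-ASC samples enter both comparisons, so their values against ESCs and against ASCs are not independent.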

How the data were processed

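PolyA RNA of 18 samples was made into directional libraries and sequenced on a HiSeq4000. The authors mapped read pairs to GRCm38 with TopHat2 and counted fragments on Ensembl release 86 exons with featureCounts 1.5.0-p1, and the deposited values are raw counts per gene, 1 table per sample. Per the file headers, an overlap of 10 bases sufficed, fragments that mapped to several places or overlapped several genes were counted for each, and strand was not used. Near-identical genes, and genes overlapping on opposite strands, therefore share counts.

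The test was edgeR 4.0.16 run under R 4.3.3, with limma 3.58.1, by TMM scaling, filterByExpr by group, a robust quasi-likelihood fit over all 18 samples, and Benjamini-Hochberg adjustment over the 16457 genes tested, X- and Y-linked genes included. Standard errors (SE) are the absolute log2 change over the root of the F statistic. Levels used DESeq2 1.42.0 size factors, and their log2 values a pseudocount of 0.1. With 0 counts in a group, a lower bound set that group at 3 counts in total. Intervals cover counting error only. Nothing in the labels says whether replicates were separate cultures, so p-values measure the spread between these samples. The script was tested on simulated data. Symbols matched 99.3% of gene IDs, and biotypes came from GENCODE M21. Promoter windows are RefSeq's.

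The named genes are the 12 largest and 12 smallest log2 fold changes among strongly changed, non-overlapping autosomal genes, leaving out predicted-gene and clone symbols, plus members of the gene lists. Values of some list members are not reported here. For the Wnt and glycolysis promoters, genes and motifs were chosen after their values were seen. Members and lists were chosen with earlier results of these data known. Same-numbered ESC-ASC and ESC samples had deviations from the group means correlated at -0.01, -0.07 and 0.03, so the numbers were not taken to pair samples. The alternatives were other scalings, filters, DESeq2, fewer samples, thinned counts and a replicate block.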

Additional observations from a re-analysis of the deposited data

Results flagged for a closer look

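The 4 Y-linked genes Ddx3y, Uty, Eif2s3y and Kdm5d, which lie outside the autosomal measurement, held 3255, 3338 and 3180 counts in ESC-ASC replicates 1, 2 and 3. The other 15 samples held at most 9 and the ESC samples at most 6. The 3 ESC-ASC values stand out as signal outside the autosomal genes, far above the level in the samples they are compared with. The origin of the difference between these libraries was not tested.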

How the results depend on the processing

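Called genes against ESCs stayed within 1.5 times the reported counts under every alternative but 1. Requiring 10 counts in each of the 6 samples removed genes silent in either group, and left 1454 higher and 1809 lower genes, 343 and 456 of them strongly changed, and 814 higher and 1555 lower than ASCs. It also moved the counts of many lists, mostly to fewer calls, both higher and lower. Among these, it left 3 genes called higher for FGF and ERK, 6 for germline and meiosis and 2 for the 2-cell list. The streak and mesoderm list was left with 0 higher and 3 lower. Leaving out 1 sample at a time gave 2925 to 2990 higher and 2683 to 2742 lower genes, 899 to 962 and 792 to 855 of them strongly changed. Against ASCs it gave 1220 to 1328 higher and 2220 to 2571 lower. Protein-coding genes alone, an alternative chosen after seeing the data, gave 2516 higher and 2202 lower. DESeq2's Wald test gave 2897 and 2710. Upper-quartile scaling moved the median of all genes from 0.02 to 0.13 and gave 3279 and 2421. With the replicate number as a block, 2999 were higher and 2692 lower, and none of the 208 named genes tested changed its call. No named gene reversed under any alternative. Calls near the fold threshold (Zfp42, Tbx3, Tet2 and Rec8) were lost under upper-quartile scaling. Zfp42, Tbx3 and Tet2 were also lost with 10 counts required in each of the 6 samples. Gata6 was lost with DESeq2 and after thinning, Pax6 was gained under 3 alternatives, and the cause of these changes was not tested. Low counts in the shallower ESC libraries limit the folds of genes silent there.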
